A study of Mus musculus with 45 samples.

Results

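Microglia genes were followed through metabolic labelling and chase in cultured cells of the embryonic mouse cortex. The set held 10 of the 53491 genes in each table, chosen by symbol and not by a measured value: Csf1r, Cx3cr1, P2ry12, Tyrobp, Fcer1g, Trem2, C1qa, C1qb, C1qc and Aif1. All 10 were found in every table. The measurement was SLAM-seq, in which cells take up 4-thiouridine (4sU) into new RNA, the RNA is alkylated, and each labelled T is read as a C. Cortical cells came from WT embryos of 3 embryonic days, E11.5, then E14.5, then E16.5, and were grown as attached cultures in medium with bFGF and N2 and B27 supplements, with 100 uM 4sU for 20 h in every group. Uridine in excess (5 mM) was then given, and the chase was stopped after 0, 2, 4, 8 or 12 h. The replicates of a stage, lettered A to C, were 3 separate pools of embryos, of 7 embryos at the youngest stage and 2 at either later one. A pool was split into 5 wells, with 1 well per time. This gave 45 libraries in 15 groups, none of them without 4sU. Pool size and the length of protease treatment differed with stage, so their part in a difference between stages cannot be told apart from that of age.

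Microglia are the resident macrophages of the brain. Their precursors arise in the yolk sac, enter the neural tube early in gestation and depend on signals through the receptor encoded by Csf1r. They are not descended from the radial glia that give rise to cortical neurons, and they are a minor population beside progenitors and neurons. No sorting step was used, so each value is a level in the RNA of the whole well. In such bulk RNA, fewer cells of a type and less RNA per cell cannot be told apart.

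The 10 genes were scarce. A library held between 15938793 and 43893597 reads in genes. By the larger total behind the authors' cpm (counts per 1000000 reads), 1 read was worth 0.0207 to 0.0564 cpm. Each read of a member covered about 10.4 to 16.7 Ts. The members' mean levels over the 45 libraries ran from 0.418 cpm for P2ry12 to 3.84 cpm for Csf1r. Csf1r had 26 to 266 reads in a library, whereas P2ry12 had 4 to 39. In the E11.5 library of replicate B at 12 h, Trem2 had 0 reads, where 1 read was worth 0.0236 cpm. A low level is not excluded by this. Read counts of this size set the precision of all that follows. Intervals given below cover counting error only. They and the limits for 0 conversions treat covered Ts as independent, so with several Ts per read they may be too narrow.

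The marker genes chosen to check the label were present unevenly. Laptm5, a lysosomal protein of blood cell lineages, reached 2.13, 3.02 and 4.24 cpm by stage, from the youngest on (mean of 3 pools), and Ctss, the lysosomal protease cathepsin S, reached 1.76, 3.87 and 4.77 cpm. In contrast, some other genes typical of mature microglia were close to absent, though Tmem119 was not at E11.5 (given later). P2ry13 had no read in 23 of 45 libraries, Gpr34 in 22 and Siglech in 27. Genes of the macrophages at the border of the brain were not absent: among 9 such genes, Cbr2 had no read in any library, Lyve1 none in 40 and Pf4 none in 30, but Stab1 was measured at 0.961, 1.19 and 1.80 cpm by stage. At 0 h the 9 border macrophage genes together ran from 2.15 to 3.23 cpm at E11.5, from 1.32 to 2.31 cpm at E14.5 and from 1.75 to 2.28 cpm at E16.5. The 8 monocyte and neutrophil genes added up to at most 0.347 cpm in any library at 0 h. The 10 genes are thus called microglia genes by name here. The part of border macrophages in their level was not tested.

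The members lie at 8 places in the genome (mm10; GENCODE release 21 coordinates). C1qb (chr4:136880129-136886187), C1qc (chr4:136889804-136893065) and C1qa (chr4:136895917-136898803) are neighbours on the minus strand of chromosome 4 and encode the chains of C1q, the recognition protein of the classical complement pathway. Tyrobp (chr7:30413760-30417585, plus strand) and Fcer1g (chr1:171229572-171234365, minus strand) encode small adaptors whose ITAM motifs pass on signals from receptors. Trem2 (chr17:48346401-48354147, plus strand) encodes a lipid-sensing receptor that signals through the Tyrobp adaptor. Aif1 (chr17:35170991-35176068, minus strand) encodes the actin-binding protein IBA1, and Cx3cr1 (chr9:119901616-120069879, minus strand) encodes the receptor for the neuronal chemokine made from Cx3cl1.

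Promoter letters are shown because PU.1, the factor encoded by Spi1, is a known regulator of microglia genes and binds sites that contain AGGAAG. RefSeq windows (GRCm38.p6, 250 bases before to 50 after a start) were at hand for 7 of the 10 members, not including Csf1r, C1qa and Tyrobp. AGGAAG on either strand stood in 5 of the 7, namely C1qb, C1qc, Fcer1g, P2ry12 and Trem2, and in 35.4% of all 32851 windows. The longer GAGGAAG, which contains it, stood in 2 of the 7 (C1qc and Trem2) and in 13.6% of all windows. The stretches below, 6 of the 8 matches, are written 5′ to 3′ on the strand of the gene, with AGGAAG or its complement CTTCCT in capitals. The capitals begin between 5 and 194 bases before the RefSeq start.
Fcer1g, chr1:171234378-171234403: tctgtagtacAGGAAGgggaaggggc
Fcer1g, chr1:171234339-171234364: aaggcgtggcAGGAAGgagggaactg
P2ry12, chr3:59263022-59263047: gctaacaagaAGGAAGttccccagtg
C1qb, chr4:136886237-136886262: ggacctgaaaCTTCCTgagggcagca
C1qc, chr4:136893093-136893118: acggcagacaCTTCCTcattttggca
Trem2, chr17:48346350-48346375: gcctcctttcCTTCCTccctccctca
These matches describe the letters of the windows and show no binding.

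Csf1r and P2ry12 share their locus with a gene on the opposite strand, and whether the authors counted reads by strand is not given in the sources used here. Csf1r (chr18:61100598-61132149, plus strand) encodes the receptor for the growth factors CSF1 and IL-34. Of its 5774 exon bases, 873 (15.1%) also lie in exons of Hmgxb3, whose level at 0 h was 44.98, 48.2 and 59.9 cpm by stage. P2ry12 (chr3:59216272-59262871, minus strand), which encodes the ADP receptor that guides microglial processes to damage, lies inside Med12l, measured at 24.5, 17.4 and 13.01 cpm at 0 h. Only 9 exon bases are shared there, but unspliced Med12l RNA would cross all of P2ry12.

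The first question was how the members' levels differed between stages. Over the 5 wells of a pool, 9 of the 10 genes were lowest on average at E11.5 and highest at E16.5, and P2ry12 alone ran the other way. Over these wells, the summed level of the 10 genes was 8.97 ± 1.46 cpm at E11.5, 12.9 ± 1.45 cpm at E14.5 and 17.7 ± 2.84 cpm at E16.5 (SD, n = 3). At 0 h alone the sum was 12.15 ± 2.68, 13.24 ± 1.28 and 16.51 ± 3.69 cpm by stage (SD, n = 3). Pools overlapped between all stages at 0 h, with 9.08 to 13.995, 12.36 to 14.71 and 13.13 to 20.45 cpm. Over the pools, Trem2, Tyrobp, Aif1, C1qc, C1qa and Fcer1g rose between E11.5 and E16.5, with Trem2 changing most. Counts of covered Ts summed over a pool were compared with edgeR's quasi-likelihood test, adjusted over 22448 genes, and a gene was called at an adjusted p under 0.05 with a log2 fold change beyond 1. Between E11.5 and E16.5, 6 members were called higher (14.8% of all genes tested were) and 1 lower (14.4% of all genes). The calls between E11.5 and E14.5 were 3 higher (8.27% of all genes) and 1 lower (8.54% of all genes). The members' median log2 difference from E11.5 was 0.52 at E14.5 and 1.16 at E16.5, beside 0.01 and -0.04 over all genes tested. Where pools of different stages are said below not to overlap, this describes their values. The share of all genes for which this held is not given.

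**Figure D1:**
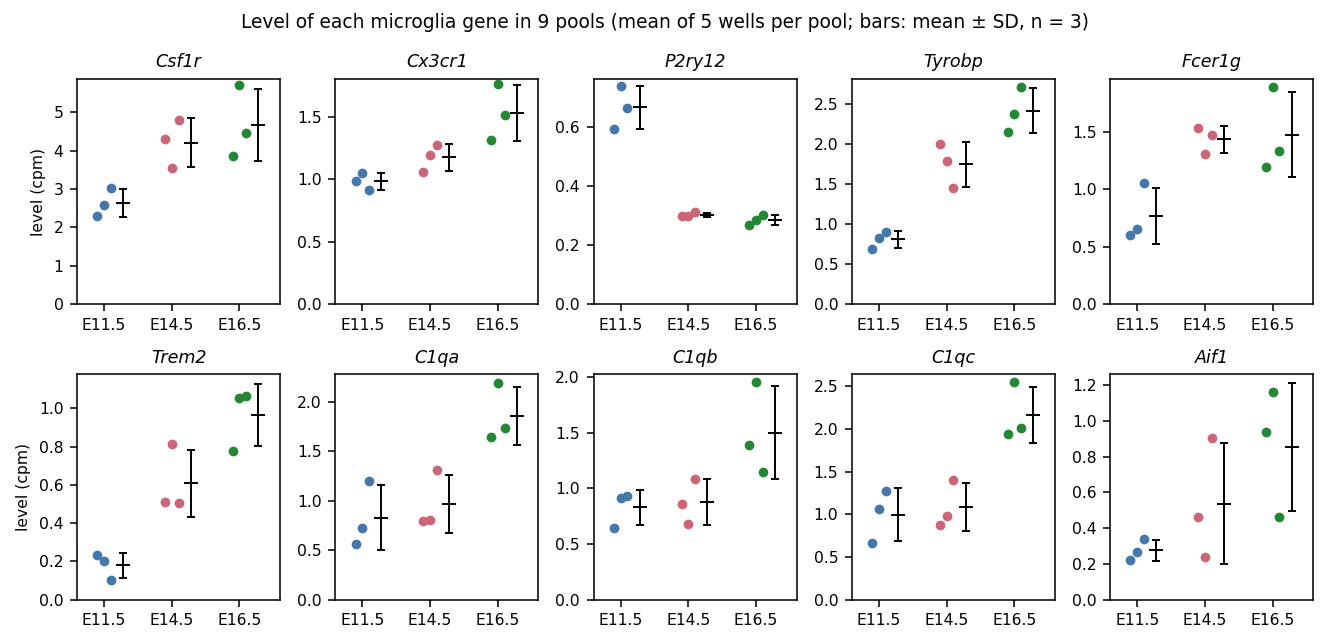
Level in cpm (vertical axes, each with its own scale) of each microglia gene in the 9 pools, by stage. Points are pools A, B and C (mean of 5 wells) and black bars give the mean ± SD (n = 3); P2ry12 stands at 0.595 to 0.740 cpm at E11.5 and at no more than 0.311 cpm in every later pool, while Tyrobp and Trem2 are higher in every later pool than in any at E11.5.

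Among the adaptors and their receptor, all 3 genes rose over the pools. At 0 h Fcer1g was not called between E11.5 and E16.5 (log2 difference 0.57, SE 0.35, edgeR adjusted p = 0.173). Tyrobp stood at 0.693, 0.829 and 0.906 cpm in pools A, B and C of E11.5. Its E14.5 pools were at 2.00, 1.78 and 1.44 cpm and its E16.5 pools at 2.15, 2.37 and 2.71 cpm. The 3 stages did not overlap, and the log2 difference between E16.5 and E11.5 was 1.74 (SE 0.17, edgeR adjusted p = 2.99e-06). Per kilobase of exon, Tyrobp had the highest level of the 10 genes at each stage (1.21, 2.61 and 3.61 cpm per kb). Trem2 rose most. It stood at 0.231, 0.203 and 0.103 cpm at E11.5, 0.507, 0.811 and 0.507 cpm at E14.5 and 0.778, 1.05 and 1.06 cpm at E16.5. Every E11.5 pool lay below every later pool, while pools of the later stages overlapped. The log2 difference from E11.5 was 1.95 at E14.5 (SE 0.29, edgeR adjusted p = 1.41e-04) and 2.62 at E16.5 (SE 0.29, edgeR adjusted p = 9.62e-06). Its level per kilobase was 0.0361, 0.123 and 0.195 cpm per kb by stage, over exons that add up to 4.95 kb. Trem2 was the lowest of the 10 on this scale at E11.5, and P2ry12 was at both later stages (0.119 and 0.112 cpm per kb). The length used joins all annotated exons of a gene, so ranks per kilobase depend on the annotation. Fcer1g stood at 0.599, 0.650 and 1.05 cpm at E11.5, 1.53, 1.30 and 1.47 cpm at E14.5 and 1.19, 1.89 and 1.33 cpm at E16.5. Its difference lay between E11.5 and E14.5 (log2 difference 1.05, SE 0.24, edgeR adjusted p = 0.00303), and the later stages overlapped (0.11, SE 0.23, edgeR adjusted p = 0.717). The Fcer1g call at E14.5 was lost without E11.5 A or B or E14.5 A, and that at E16.5 without E11.5 A or E16.5 B.

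Over the pools, C1qa and C1qc rose between E11.5 and E16.5. At 0 h alone neither was called. The log2 difference there was 0.59 for C1qa (SE 0.32, edgeR adjusted p = 0.124) and -0.0017 for C1qc (SE 0.28, edgeR adjusted p = 0.996). The values that follow are over the pools. C1qa stood at 0.562, 0.726 and 1.20 cpm at E11.5, 0.793, 0.80 and 1.31 cpm at E14.5 and 1.65, 2.19 and 1.74 cpm at E16.5. C1qc stood at 0.658, 1.06 and 1.27 cpm, then 0.873, 0.973 and 1.41 cpm, then 1.94, 2.54 and 2.01 cpm. For both genes, E11.5 and E14.5 pools overlapped, whereas all E16.5 pools were above all others. Between E16.5 and E11.5 the log2 difference was 1.17 for C1qa (SE 0.30, edgeR adjusted p = 0.00523, a call lost without E11.5 A) and 1.21 for C1qc (SE 0.23, edgeR adjusted p = 6.91e-04). C1qb moved less: its stage means were 0.830, 0.879 and 1.50 cpm, with a log2 difference of 0.90 (SE 0.23, edgeR adjusted p = 0.00423) that stayed under the fold threshold. From E14.5 to E16.5 the 3 genes differed by 0.77 to 0.95 on the log2 scale with adjusted p-values from 0.00481 to 0.0258, again under the fold threshold. No member was called between these later stages, where 13.3% of all genes were called in either direction; at the adjusted p alone, 5 members passed, against 53.4% of all genes.

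The chemokine and growth factor receptors differed by smaller amounts. Csf1r had stage means of 2.64 ± 0.38, 4.21 ± 0.63 and 4.68 ± 0.93 cpm (SD, n = 3), and its E11.5 pools (2.29, 2.58 and 3.03 cpm) lay below all others. The log2 difference from E11.5 was 0.74 at E14.5 (SE 0.16, edgeR adjusted p = 0.00242) and 0.92 at E16.5 (SE 0.16, edgeR adjusted p = 4.07e-04), under the fold threshold both times. As a share of Hmgxb3, its neighbour on the opposite strand, Csf1r was at 5.11% ± 1.13, 7.45% ± 1.33 and 7.05% ± 1.57 (SD, n = 3), a ratio that was not tested. Cx3cr1 had stage means of 0.982, 1.17 and 1.53 cpm, in 3 groups that did not overlap, with a log2 difference of 0.69 between the ends (SE 0.15, edgeR adjusted p = 0.00201). Aif1 had the widest spread for its level at both later stages: its E16.5 pools stood at 0.938, 1.16 and 0.463 cpm and its E14.5 pools at 0.465, 0.238 and 0.904 cpm, against 0.220, 0.265 and 0.340 cpm at E11.5. Its log2 difference between E16.5 and E11.5 was 1.77 (SE 0.48, edgeR adjusted p = 0.00693).

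P2ry12 fell between E11.5 and E14.5, and its later stages overlapped (log2 difference -0.07, SE 0.17, edgeR adjusted p = 0.766). Its pools stood at 0.595, 0.740 and 0.666 cpm at E11.5, 0.298, 0.299 and 0.311 cpm at E14.5 and 0.267, 0.286 and 0.302 cpm at E16.5. The log2 difference was -1.09 at E14.5 (SE 0.17, edgeR adjusted p = 2.14e-04) and -1.15 at E16.5 (SE 0.17, edgeR adjusted p = 8.79e-05), each against E11.5, and the former call was lost without E11.5 B. Its share of the 10 genes per kilobase went from 5.03% to 1.47% and 0.976%. Med12l, in which P2ry12 lies on the other strand, was also lower at later stages, and P2ry12 amounted to 2.33% ± 0.38, 1.49% ± 0.04 and 1.97% ± 0.11 of the Med12l level by stage (SD, n = 3). The ratio to Med12l spanned 1.91% to 2.66% over the E11.5 pools. The part of Med12l RNA in the P2ry12 level was not tested.

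Pool values take in the whole chase, over which E11.5 levels went down (given later), so stages were also compared before it. At the single time of 0 h, where 9 libraries entered a fit over 18408 genes, fewer members passed. Between E11.5 and E16.5, Trem2, Aif1 and Tyrobp were called higher (14.7% of all genes) and P2ry12 lower (14.6% of all genes), with log2 differences of 2.30, 1.76, 1.23 and -1.43 and SEs of 0.55, 0.56, 0.27 and 0.40. Between E11.5 and E14.5, P2ry12 alone was called lower (-1.11, SE 0.40, edgeR adjusted p = 0.0343, 8.00% of all genes), and no member was called higher (8.14% of all genes). Between E14.5 and E16.5, C1qb was the only member called higher (1.06, SE 0.40, edgeR adjusted p = 0.0419, 7.19% of all genes) and none was lower (5.92% of all genes). The Aif1 call was lost without E11.5 A or E16.5 B. The P2ry12 call at E14.5 was lost without E11.5 B or C or E14.5 A or B, and the C1qb call without any E16.5 pool, E11.5 C, E14.5 A or E14.5 B. The shares of members called at 0 h were thus near those of all genes in the earlier and later interval. For the C1q genes, 0 h and the mean over 5 wells gave different pictures. At 0 h C1qc had the same level at E11.5 and E16.5 (1.55 ± 0.50 and 1.50 ± 0.18 cpm, SD, n = 3), and its E11.5 wells fell from there during the chase.

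Genes linked to the members moved with them in part. Of 18 other microglia genes, 16 were tested over the pools, and between E11.5 and E16.5 9 rose and 3 fell. Of all genes tested in this comparison, 14.8% were called higher and 14.4% lower, and each list count given here stands beside those shares. Ctss (log2 difference 1.56), Cd53 (1.44), Ptprc (1.13), the leukocyte marker CD45, and Laptm5 (1.05) were among those that rose. Tmem119, Sparc and Slc2a5 fell. Tmem119, a surface protein of mature microglia, stood at 2.22 cpm at E11.5 and 0.112 cpm at E16.5 (log2 difference -4.13, SE 0.33, edgeR adjusted p = 5.68e-07). Over the same pools, 6 of 8 mural and meningeal fibroblast genes fell, with a median log2 difference of -3.45, and their sum at 0 h went from 412.5 to 621.2 cpm at E11.5 to between 15.1 and 28.9 cpm at E16.5; their part in the Tmem119 fall was not tested. Of 7 transcription factors, 3 rose and 1 fell. Spi1, which encodes PU.1, rose by 1.29, Irf8 by 1.08 and Mef2c by 4.54 on the log2 scale. Mef2c is also a gene of cortical neurons, and 6 of 8 neuron genes rose over the same pools. Sall1, which radial glia also express, was lower by 1.87 on the log2 scale, and 7 of 8 radial glia genes fell. The part of these cells in either change was not tested.

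Partners of the adaptors and of C1q were mixed in the same comparison, in which 14.8% of all genes were called higher and 14.4% lower. Among 8 ITAM signalling partners, 7 were tested. The Fc receptor gene Fcgr3 (2.54) and Cd300c2 (1.65) rose, and Syk, the kinase that binds phosphorylated ITAMs, fell (-2.31). Among 8 classical complement partners, 6 were tested, and C3ar1 (1.38) and Itgb2 (2.25), receptors of complement fragments, rose while Cd93 (-1.90), also an endothelial gene, fell. Of 12 phagocytic and activated microglia genes, 8 rose and none fell. The most abundant of them, Lpl (20.8 to 32.9 cpm) and Cd63 (24.2 to 17.6 cpm), were under the fold threshold. Itgax and Cd68, chosen after their values were seen, rose from 0.0828 to 1.50 cpm and from 2.26 to 4.86 cpm. Of the 6 ligands of the members' receptors, Cx3cl1 alone passed, with levels of 19.4, 15.9 and 37.2 cpm by stage and a log2 difference of 1.02. Csf1, at 13.6, 10.3 and 11.4 cpm, and Il34, at 1.41, 1.79 and 0.838 cpm, differed by less than the fold threshold. Of the 9 border macrophage genes, 3 were tested over the pools, where Ms4a7 fell (-1.01, SE 0.34, edgeR adjusted p = 0.0214) and Stab1 (0.94) and Mrc1 (0.83) were not called.

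The second question was whether the members' levels held during the 12 h of chase, which a decay experiment reads against total RNA. At E11.5 they did not. The summed level of the 10 genes was 9.08 to 13.995 cpm at 0 h and 3.69 to 5.09 cpm at 12 h, a ratio of 0.363 ± 0.045 within a pool (SD, n = 3). At E14.5 and E16.5 the same ratio was 0.924 ± 0.093 and 1.14 ± 0.09. Of the 9 members that passed the filter on low counts at E11.5, 6 fell (2.36% of 18877 genes did) and none rose (1.32% of all genes). Each of the 9 had a log2 difference below 0, with a median of -1.28 beside -0.02 over all genes. Trem2 was left out by the filter at E11.5, with 0 to 0.176 cpm at 12 h.

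**Figure D2:**
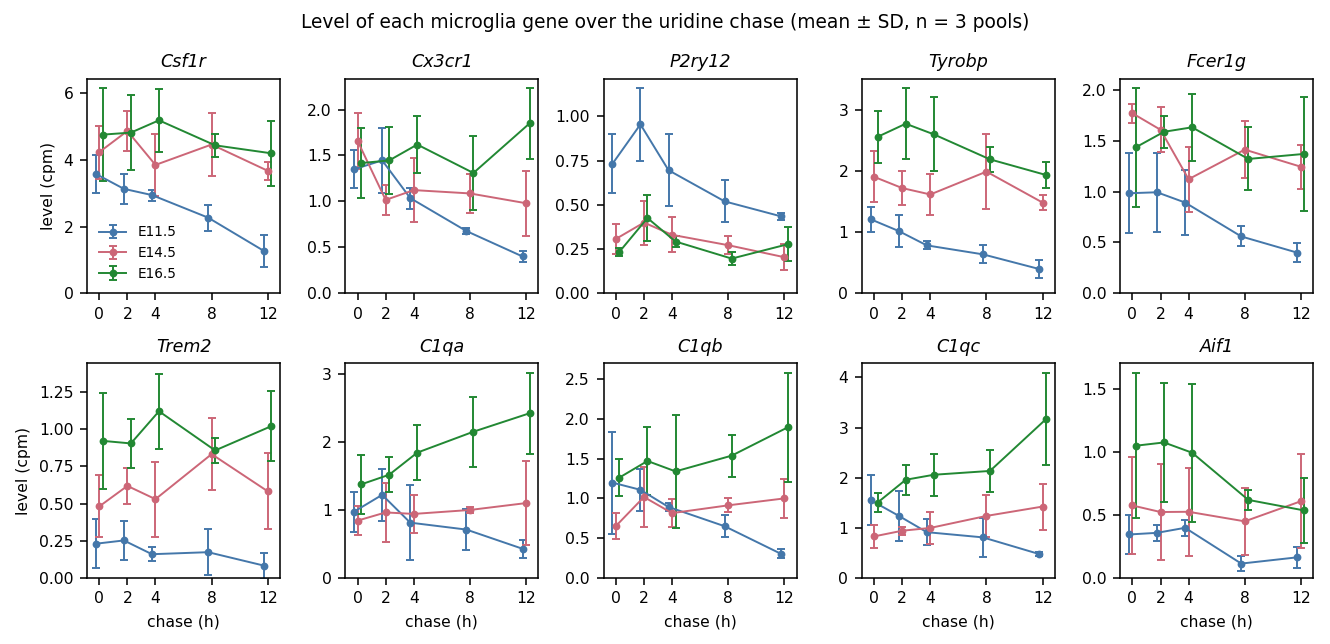
Level in cpm (vertical axes, each with its own scale) of each microglia gene against hours of uridine chase, as mean ± SD of 3 pools per stage. The E11.5 lines run down to 1.26 cpm for Csf1r, 0.401 cpm for Cx3cr1 and 0.397 cpm for Tyrobp at 12 h, while C1qc at E16.5 climbs from 1.50 to 3.17 cpm.

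Csf1r fell from 2.93, 3.799 and 4.00 cpm in replicates A, B and C at 0 h to 0.914, 1.06 and 1.81 cpm at 12 h. Its remaining share was 88.4% at 2 h, 83.3% at 4 h, 63.3% at 8 h and 34.8% ± 9.2 at 12 h (SD, n = 3), and the log2 difference at 12 h was -1.28 (SE 0.31, edgeR adjusted p = 0.0151). The level went down in all 3 pools. Hmgxb3 on the opposite strand was at 44.98 cpm at 0 h and 45.5 cpm at 12 h. Cx3cr1 fell from 1.17, 1.30 and 1.58 cpm to 0.457, 0.401 and 0.344 cpm (-1.43, SE 0.25, edgeR adjusted p = 0.00340). Tyrobp fell from 0.978, 1.35 and 1.31 cpm to 0.281, 0.566 and 0.344 cpm (-1.39, SE 0.39, edgeR adjusted p = 0.0306), and Fcer1g from 0.665, 0.866 and 1.42 cpm to 0.316, 0.378 and 0.504 cpm (-1.22, SE 0.38, edgeR adjusted p = 0.0447). For these 4 genes, each of the 3 wells at 12 h lay below each well at 0 h.

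C1qc fell from 0.978, 1.83 and 1.85 cpm to 0.492, 0.496 and 0.436 cpm (-1.67, SE 0.32, edgeR adjusted p = 0.00510), and C1qb from 0.509, 1.78 and 1.31 cpm to 0.281, 0.260 and 0.367 cpm (-1.64, SE 0.45, edgeR adjusted p = 0.0273). C1qa (-0.80), P2ry12 (-0.67) and Aif1 (-0.87) were not called, with adjusted p-values of 0.185, 0.185 and 0.317. Even so, 8 of the 9 genes had 12 h wells entirely below the 0 h wells, which 35.6% of all genes also had. Calls were lost when a pool was left out. Without replicate B none of the 6 was called. Without replicate A 3 were, with Csf1r, Fcer1g and Tyrobp lost, and without replicate C the last 2 of these were lost. Over all genes, leaving out 1 pool gave 300 to 613 calls, against 446 down and 250 up with every pool.

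The E11.5 libraries of 12 h stood apart in another way. Reads in the table made up 82.9% to 87.8% of the total behind the authors' cpm there, against 89.6% to 92.3% in the other 42 libraries, and Gm42418, a locus that overlaps ribosomal RNA, took 3.38% to 8.16% of reads, against 0.163% to 2.29% elsewhere. Its part in the members' fall was not tested. Most other lists kept more of their level in the same wells: the ratio of summed levels at 12 h and 0 h was 0.448 for border macrophage genes, 0.492 for complement partners, 0.708 for phagocytic genes, 0.735 for mural and meningeal genes, 0.675 for erythroid genes, 0.822 for radial glia genes and 1.03 for neuron genes. These means were above the 10 members' 0.363, but single pools overlapped for border macrophage genes and complement partners. The pools ran from 0.318 to 0.407 for the members, 0.383 to 0.539 for border macrophage genes and 0.391 to 0.576 for complement partners. No test of the difference between lists was made. The monocyte and neutrophil list, at 0.110 cpm at 0 h and 0.0387 cpm at 12 h (mean of 3 pools), was too low to place, with ratios between 0 and 1.79 in single pools. Ligand genes fell too at E11.5: Cx3cl1 by 1.22, Il34 by 2.24 and Tgfb1 by 1.49 on the log2 scale, while Csf1 differed by -0.18 and was not called.

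At E14.5 no member was called between 0 and 12 h (edgeR; 1.99% of 18784 genes were, in either direction, and 2 members had an unadjusted p under 0.05). Cx3cr1 (-0.74, SE 0.28) and Fcer1g (-0.67, SE 0.22) came nearest, with edgeR adjusted p-values of 0.106 and 0.0722. At E16.5 only C1qc was called higher, with 0.625% of 18733 genes. C1qc stood at 1.29, 1.61 and 1.60 cpm at 0 h and at 2.66, 4.24 and 2.61 cpm at 12 h (1.08, SE 0.22, edgeR adjusted p = 0.00620), an increase in every pool, though the call was lost without pool A or B. No member was called lower (2.00% of all genes). Letters A, B and C mark the same pool within a stage, and with the pool as a block Aif1 was called lower as well (-1.11, edgeR adjusted p = 0.0315, with 2.72% of all genes), from 0.799, 1.71 and 0.641 cpm to 0.732, 0.630 and 0.242 cpm.

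The difference between the 12 h changes of 2 stages was tested as an interaction over 17224 genes, called at the adjusted p alone. Against E11.5, C1qb (2.24) and C1qc (2.25) changed more upward at E14.5 (1.13% of all genes did), and C1qb (2.20), C1qc (2.74) and Cx3cr1 (1.86) did so at E16.5 (2.69% of all genes). The C1qb calls were lost without E11.5 B, the first also without any E14.5 pool and the other without E16.5 A or B. With the pool as a block, 3 members passed at E14.5, where Csf1r was added (3.29% of all genes passed upward), and 6 at E16.5, where C1qa, Csf1r and Fcer1g were added (6.54% of all genes). Between E14.5 and E16.5 no member passed in edgeR (0.430% of all genes did in either direction; Cx3cr1 alone had an unadjusted p under 0.05). Without the block, C1qa (1.65), Csf1r (1.13) and Fcer1g (1.20) had adjusted p-values of 0.0778, 0.0796 and 0.178 at E16.5 against E11.5.

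The third question concerned turnover, read from the share of converted Ts. At 0 h, after 20 h of label, the members were labelled more than other genes at the earlier stages and not at E16.5. Summed over the 10 genes, 3.06%, 3.30% and 3.42% of covered Ts were converted in replicates A, B and C at E11.5, beside 1.09%, 1.01% and 1.44% for all genes of the same libraries. At E14.5 the members stood at 2.97%, 3.15% and 2.44% beside 1.09%, 1.18% and 1.03%, and at E16.5 at 1.80%, 2.01% and 1.66% beside 1.80%, 1.91% and 1.88%. The ratio of members to all genes was 2.82 ± 0.45, 2.59 ± 0.18 and 0.978 ± 0.087 (SD, n = 3). The members' label fell with stage while the label of all genes was highest at E16.5. These shares were not tested.

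**Figure D3:**
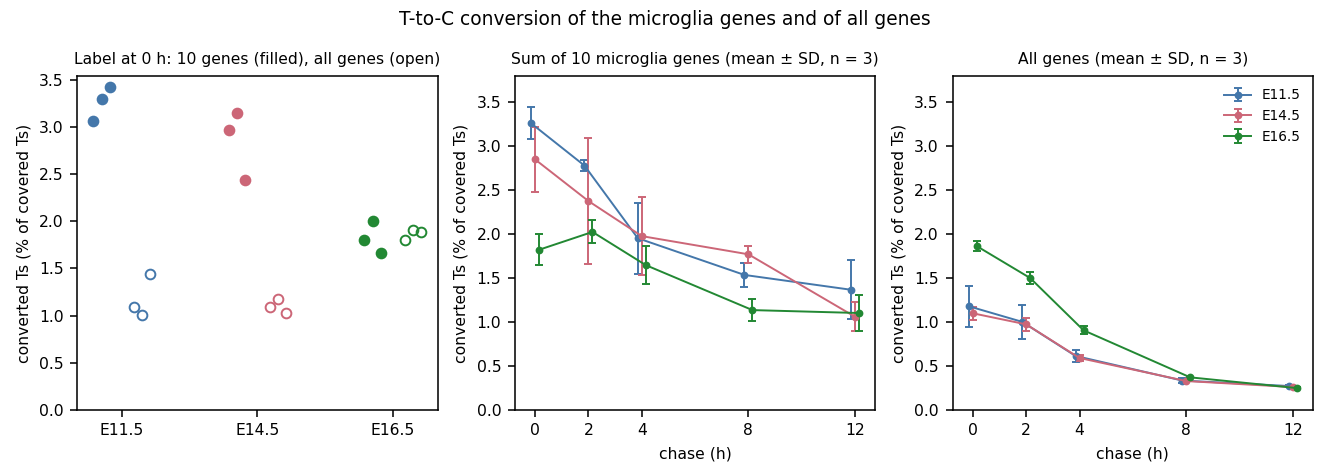
Converted Ts as a percent of covered Ts. Left, each replicate at 0 h for the sum of the 10 microglia genes (filled) and for all genes (open); middle and right, the mean ± SD (n = 3) over the chase on the same scale, where the members keep 1.06% to 1.37% at 12 h and all genes 0.248% to 0.271%.

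Single genes followed the fall with stage only in part. The label was lower at each later stage for Csf1r, C1qb, Cx3cr1, Tyrobp and Fcer1g. For C1qa, C1qc, Aif1, P2ry12 and Trem2 it was highest at E14.5, for C1qc by little (3.13% and 3.19% at E11.5 and E14.5). With 3 replicates summed, C1qb had 5.06% of its 1047 covered Ts converted at E11.5 (95% Wilson interval 3.89 to 6.56), Fcer1g 4.51%, Tyrobp 4.07%, Cx3cr1 3.90% and Csf1r 2.65% (2.15 to 3.27 of 3203 covered Ts), beside a median of 1.21% over 15715 genes with over 500 covered Ts. Of the 8 members with that coverage, 7 lay above the 95th percentile of genes. P2ry12 was the exception, at 1.24% and the 58.3 percentile, next to 1.23% for Med12l. At E14.5 all 10 members lay above the 95th percentile, between 95.1 and 98.6, from Aif1, C1qb, Csf1r and P2ry12 at 2.02% to 2.40% up to C1qa at 3.39%. Some of these ranks rest on few conversions. P2ry12 had 13 of 642 covered Ts converted (interval 1.19 to 3.43) and Aif1 16 of 680 (1.45 to 3.79), beside a median gene at 1.14%. Single replicates ran from 0% to 3.65% for P2ry12 and from 0.685% to 6.19% for Aif1. At E16.5 their median percentile was 48.7 among 16457 genes, with Csf1r at 14.4 (1.48%, interval 1.21 to 1.80, beside 2.13% for Hmgxb3) and C1qa at 96.8 (3.16%, interval 2.43 to 4.08). C1qa differed least between stages, at 2.96%, 3.39% and 3.16%. In P2ry12 at E16.5, 0 of 481 covered Ts were converted, beside 1.59% for Med12l. With Ts taken as independent this allows a share of up to 0.624%. These Ts came from only 6 to 11 reads per library, so the limit may be higher.

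**Figure D4:**
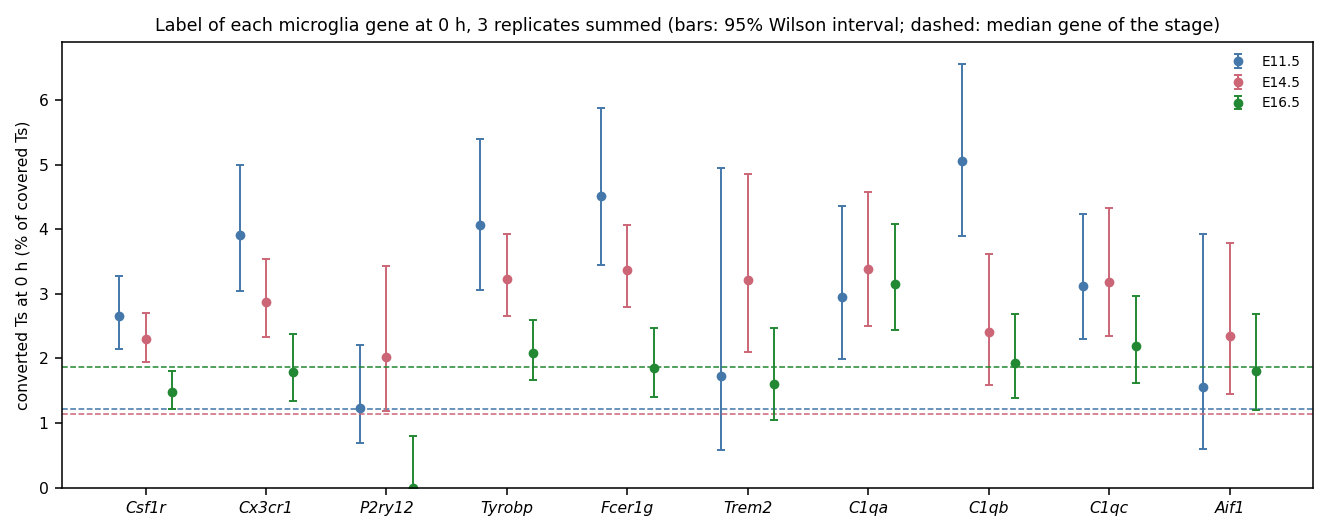
Converted Ts at 0 h as a percent of covered Ts for each microglia gene and stage, with 3 replicates summed and bars for the 95% Wilson interval; dashed lines give the median gene of each stage (1.21%, 1.14% and 1.86%). Points of E11.5 and E14.5 lie above their own line, P2ry12 at E11.5 only just so, while most E16.5 points lie around theirs.

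At E11.5 and E14.5 neighbouring lists had a smaller mean excess, while at E16.5 the mean of complement partners stood above that of the members. Replicates overlapped in 2 of these comparisons. Border macrophage genes at E14.5 ran from 0.640 to 2.53, beside 2.38 to 2.71 for the members. Complement partners at E16.5 ran from 0.869 to 1.38, beside 0.882 to 1.05. These differences were not tested. The ratio of label to that of all genes was, by stage, 1.40, 1.66 and 0.839 for border macrophage genes, 1.55, 1.90 and 1.08 for complement partners, 1.41, 1.60 and 0.971 for phagocytic genes, and 1.23, 1.64 and 0.916 for ITAM partners. Radial glia genes stood at 0.989, 1.01 and 0.551, and neuron genes at 0.857, 0.917 and 1.12. Erythroid genes stood at 0.501, 0.140 and 0.0488. From E14.5 to E16.5 the ratio dropped in each of these lists but that of neuron genes. It did not drop for the transcription factors (1.36 and 1.38) or for mural and meningeal genes (1.06 and 1.21).

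Over the chase, the converted share fell more slowly in the sum of the 10 members than in all genes. At E11.5 the members' summed level at 12 h was 0.363 of that at 0 h. The amount of labelled RNA left was not computed. At 12 h, 42.4% ± 12.9, 37.3% ± 5.0 and 61.5% ± 17.2 of the 0 h share remained in the sum of 10 genes by stage (SD, n = 3), beside 23.4%, 23.7% and 13.3% in all genes. A single exponential through the 5 times gave a summed half-life of 7.93 ± 1.47 h, 9.19 ± 0.26 h and 19.2 ± 9.28 h, beside 5.05, 5.25 and 4.03 h for all genes. The E16.5 replicates were far apart at 15.7, 12.3 and 29.8 h, the last beyond the limit of 24 h set for single transcripts, with fits of an R2 of 0.636, 0.875 and 0.547. The fits of replicate A at E11.5 (R2 0.594) and C at E14.5 (0.435) were also under the R2 of 0.6 asked of single transcripts, and their half-lives of 9.62 and 9.46 h are in the means given. At 12 h the converted share of the members with over 500 covered Ts had a median percentile of 98.5, 96.7 and 96.3 by stage, with P2ry12 lowest at E11.5 (4.07).

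By the rule of the study for single transcripts (over 500 covered Ts at all 5 times, an R2 over 0.6 and a half-life up to 24 h in each of 3 replicates), no member had a half-life at any stage. Csf1r came closest. It passed in replicates B and C at E11.5 (5.45 and 4.84 h), in A and B at E14.5 (7.45 and 6.03 h) and in B at E16.5 (9.59 h). In that same E16.5 replicate, C1qa had 4.19 h, C1qc 7.20 h and Cx3cr1 10.5 h, and Fcer1g had 7.11 h in replicate B at E14.5. The test of half-lives across stages, limma's moderated F-test over 9505 transcripts, of which 3.15% were called, therefore held no member. With Ts summed over the 3 replicates before the fit, a step added after the data were seen, more curves passed. The limits were the same numbers, but the one on coverage was set against the summed Ts and so was easier to pass. Csf1r then had 5.37, 7.34 and 13.9 h by stage, at the 69.5, 85.1 and 99.3 percentile of transcripts, whose medians were 4.41, 4.74 and 3.56 h. Cx3cr1 differed little, with 5.04, 5.82 and 5.19 h. Tyrobp had 10.9 and 12.9 h at E11.5 and E14.5, at the 96.4 and 97.8 percentile, and C1qa had 9.39 and 7.68 h at E14.5 and E16.5. No single replicate of Tyrobp passed at E11.5: A had 5.51 h (R2 0.527), B 10.4 h (R2 0.327) and C no half-life. Single passing values were 17.0 h for C1qc and 12.5 h for Fcer1g at E14.5, 16.1 h for C1qb and 9.65 h for Trem2 at E16.5, and 4.57 h for P2ry12 at E11.5. Summed curves that did not pass, where a half-life was fitted, ran from 2.29 h (P2ry12 at E14.5) to 81.0 h (Fcer1g at E16.5). Each summed curve is 1 value per stage with no error between replicates, so differences between its stages had no test. At E11.5 the total level of several members fell during the chase, so label there was read against a shrinking amount of RNA.

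Across the 45 libraries the levels of the members correlated with each other, apart from P2ry12, but less so within groups. For each member, the correlation of its log2(cpm + 0.1) with the mean of the other 9 was between 0.625 (Trem2) and 0.885 (Csf1r), and it was -0.389 for P2ry12. Of the 45 pairs of members, 36 correlated above 0, with a median of 0.634. Wells of a pool share their cells and stage means enter these values, so the deviations from the mean of each of the 15 groups were correlated too. There Trem2 (-0.372), Tyrobp (0.0408) and P2ry12 (0.128) had the lowest correlations with the mean of the other 9, and Csf1r (0.713) the highest. The median over pairs was 0.144, C1qa and C1qc were closest (0.673), and Aif1 and Trem2 were lowest (-0.511). Among 18095 genes outside the set, the level of Laptm5 was most like the members' mean (r = 0.910), followed by Macroh2a2 (0.903), Lancl2 (0.899), Mtpn, Anxa3, Bloc1s6, Ociad1, Hspbp1, Ufm1 and Klhl35 (0.871). In the deviations, Ms4a6c (0.818) and Lyz2 (0.812) came first, then Slc13a3, Adgre1 (0.7996), Dlx6os1, S1pr1, 1500035N22Rik, Ccn2, Cdk14 and Aldh1l1 (0.769). Lyz2 and Adgre1 encode lysozyme and the macrophage surface protein F4/80. Ratios between the C1q chains overlapped between stages: C1qa per kilobase was 1.03 ± 0.28, 1.15 ± 0.16 and 1.33 ± 0.22 times C1qb by stage, and C1qc 0.666 ± 0.101, 0.700 ± 0.119 and 0.834 ± 0.134 times C1qb (SD, n = 3). These ratios depend on the exon lengths used. In plain cpm, C1qc was above C1qb by stage mean: 0.996 and 0.830, then 1.08 and 0.879, then 2.16 and 1.50 cpm.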

How the data were processed

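The deposited tables give, per gene and library, a raw count of covered Ts, a conversion rate as a fraction of covered Ts, and reads as CPM; per the authors and the labels they were made with SlamDunk v0.4.3 on mm10 and GENCODE 24, and covered Ts were tested as counts. Reads were recovered from the CPM steps (100% of values whole within 0.01 reads). One read covers several Ts, so covered Ts are not independent counts. Libraries were prepared with a stranded mRNA kit. edgeR 4.0.16 (R 4.3.3; TMM, quasi-likelihood test, over 10 covered Ts in every library, Benjamini-Hochberg) was the main test; DESeq2 1.42.0, limma 3.58.1 (pseudocounts 0.1 and 0.5 cpm), RLE factors, recovered reads, a replicate block and leaving out each pool were alternatives. It was checked on simulated data. Within a stage, the labels give a letter to a single pool, and same-letter deviations at 0 and 12 h correlated at 0.0849 to 0.274. Replicates are separate pools of embryos; no pair of libraries agreed within counting noise (lowest chi-square per degree of freedom 2.15). Half-lives are from single-exponential fits with SciPy 1.17.1. Percentiles and list sums are descriptions. List genes named in the text were those called, at most 8 per list by mean cpm for the 3 microglia lists, and the highest in level for others, with those a small count needed. The 10 members, the gene lists and the searched motif were chosen with earlier results of these data known; 1 transcription factor is not reported here and was left out of its list. Of the symbols, 96.6% were found in GENCODE release 21, used for positions and exon lengths.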

Additional observations from a re-analysis of the deposited data

Results flagged for a closer look

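The change in level over 12 h of chase differed between stages for 3 members. Tested as an interaction in edgeR, the 12 h change relative to E11.5 was larger at E14.5 by 2.24 for C1qb (SE 0.55, adjusted p = 0.0194) and by 2.25 for C1qc (SE 0.41, adjusted p = 0.00243). At E16.5 it was larger by 2.20 for C1qb (SE 0.54, adjusted p = 0.0172), by 2.74 for C1qc (SE 0.41, adjusted p = 4.19e-04) and by 1.86 for Cx3cr1 (SE 0.38, adjusted p = 0.00511), all on the log2 scale. C1qc went down in 3 of 3 pools at E11.5 and up in 3 of 3 pools at both later stages. C1qb did the same, and Cx3cr1 went up in 2 of 3 pools at E16.5. The C1qb differences were not called without E11.5 B, nor the one at E14.5 without any single E14.5 pool, nor the one at E16.5 without pool A or B of that stage.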

How the results depend on the processing

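Of 29 calls of members, 5 held under every alternative run: C1qc in both differences of the 12 h change from E11.5, Cx3cr1 in the one for E16.5, and Trem2 and Tyrobp over the pools between E11.5 and E16.5. None reversed, and 58 of 1762 values changed sign, none of them called. Counts of members called at 0 h were 1 (E14.5 against E11.5), 1 (E16.5 against E14.5) and 4 (E16.5 against E11.5). In that order, the log2(cpm + 0.5) limma fit gave 0, 0 and 0, no filter 0 and 0 for the first pair, recovered reads 0 for the first and 1 for the last (7 members tested), and recovered reads with no filter 2 and 0. The replicate block gave 0 and DESeq2 2 for the first, and log2(cpm + 0.1) gave 0 for the second. Over the pools (4, 0 and 7 calls), log2(cpm + 0.1) gave 2 and log2(cpm + 0.5) 0 for the first, both fits of recovered reads 1 for the second, and log2(cpm + 0.5) 2 for the last. For the chase at E11.5 (6 calls), recovered reads gave 3 of 4 members tested; at E16.5 (1 call) both limma fits gave 0 and the replicate block 2. In the 12 h change of E14.5 against that of E11.5 (2 calls), recovered reads gave 1, recovered reads with no filter 4 and log2(cpm + 0.1) 4; for E16.5 against E11.5 (3 calls), the last 2 of these fits gave 5 and 6, log2(cpm + 0.5) 5 and the replicate block 6. The block changed no other count of members by over 1.5 times. Same-letter pools of different stages share only a letter (correlations at 0 h from -0.06 to 0.06). Leaving out 1 pool gave 0 to 3, 0 to 2 and 3 to 4 calls at 0 h, 2 to 5, 0 to 3 and 5 to 8 over the pools, 0 to 4, 0 to 0 and 0 to 1 for the chase, and 1 to 3, 0 to 0 and 2 to 4 for the differences. At 0 h, the first count was 0 without E11.5 B, E14.5 A or E14.5 B, 2 without E11.5 A and 3 without E14.5 C; the second was 2 without E14.5 C and 0 without E11.5 C, E14.5 A, E14.5 B or any E16.5 pool. Over the pools, the first was 2 without E11.5 B, and the second 3 without E14.5 C and 1 without E16.5 C. The C1qc call at E16.5 was lost without pool A or B, and the first difference had 1 call without E11.5 B or any E14.5 pool. Leaving out 1 pool also gave 0 half-life calls, and a label at 0 h of 3.18% to 3.36%, 2.70% to 3.06% and 1.73% to 1.90%. Without Csf1r the E11.5 label was 3.48%. The cause of these moves was not tested, apart from members lost to the filter on reads. The limma fit of log2(cpm + 0.1), which differs from edgeR in unit, model and scaling (no TMM factor), put the median of all genes at 12 h of E11.5 at -0.19 in place of -0.02, and the split of all genes at 1317 up and 313 down in the E14.5 difference (194 and 722 in edgeR) and at 1807 and 410 in the E16.5 difference (464 and 803). With the block, 566 and 1502 genes and 1126 and 1680 genes were called there. DESeq2 was not run for the differences. Recovered reads with no filter, the summed half-lives, the linear trend over 5 times and the label without Csf1r were added after the data were seen. Reads per library of 4 to 39 (P2ry12), 0 to 58 (Trem2) and 1 to 72 (Aif1) limit these members most.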
